A study of Homo sapiens with 6 samples.

Results

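Keratin and cornified envelope genes were followed in SKOV3 cells, a long-established line from a human ovarian carcinoma. The cells were exposed to 1 µM fenbendazole or to DMSO, its solvent, for 48 h. Fenbendazole is a benzimidazole used against parasitic worms that binds tubulin. Poly(A) RNA was sequenced in 3 libraries per group, DMSO 10, 11 and 12 and fenbendazole 7, 8 and 9 (the numbers are those of the sample titles). The genes are 9 of the 61552 in the deposited table, taken by symbol: KRT7, KRT8, KRT18, KRT19, KRT80, KRT81, SCEL, EVPL and PPL. SCEL was chosen by its measured fold change, because it is much higher with fenbendazole, so its values are given as a description with no test. The other 8 were taken by family, with earlier results of these data known. Of the 9, 8 passed the filter on low counts and EVPL did not.

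Keratins are the intermediate filament proteins of epithelia. Each filament pairs an acidic type I keratin (here KRT18 and KRT19) with a basic type II keratin (KRT7, KRT8, KRT80 and KRT81). KRT8 with KRT18 is the basic pair of simple epithelia, and KRT7 and KRT19 are added in ductal and glandular linings, the ovarian surface and most ovarian carcinomas. KRT80 is found in many epithelia near desmosomes, and KRT81 is a hair keratin that also appears in some carcinomas. The cornified envelope is the cross-linked protein shell under the membrane of terminally differentiating squamous cells. Envoplakin (EVPL) and periplakin (PPL) are plakins that form its early scaffold and can bind keratin filaments, and sciellin (SCEL) is a precursor joined to it.

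SCEL stood 7.86 times higher with fenbendazole, KRT80 rose 1.90-fold, and KRT8, KRT18 and KRT19, 3 of the 4 simple-epithelium keratins, were not called. KRT7, the remaining one, had 2.06 times the DMSO level and groups that did not overlap, but missed the threshold with all 6 libraries. PPL was lower in each treated library than in any control, though edgeR did not call it with all 6 libraries, and EVPL was at or near 0 throughout. With all 6 libraries neither the keratins nor the envelope genes had fold changes of 1 direction. For the envelope genes this rested on SCEL, picked for its rise, against PPL, which was not called, so it is a description only. For the keratins this rested on KRT8, KRT18 and KRT19, whose log2 fold changes were -0.04, -0.29 and -0.54. Without the control DMSO 11, described below, these were 0.24, 0.01 and -0.00. The plot of levels by library shows each value.

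**Figure D1:**
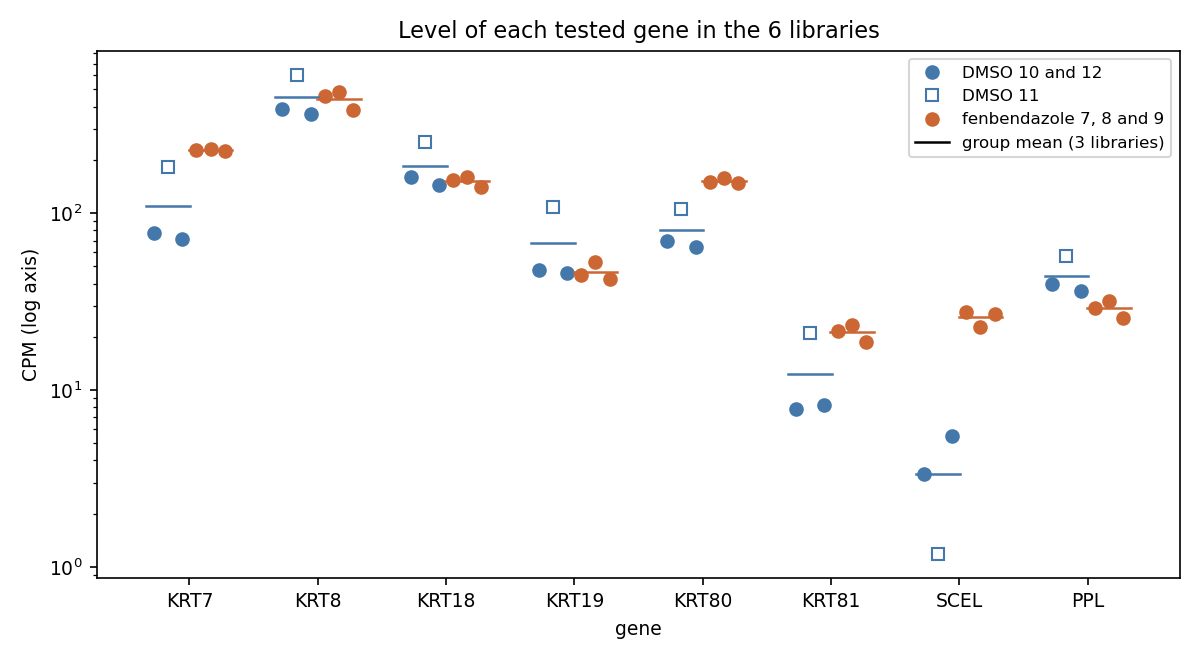
CPM on a log axis (vertical) of the 8 tested genes (horizontal) in each of the 6 libraries. Points are libraries, open squares mark DMSO 11 and lines are means of 3 libraries. KRT7, KRT80 and SCEL lie higher in every fenbendazole library than in every control, PPL lies lower, and DMSO 11 is the highest control for each keratin and the lowest for SCEL.

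One control, DMSO 11, stood apart from the other 5 libraries, and its deviation followed base composition. Its median log2 CPM, centred per gene over the libraries, was 1.16 higher for genes above 52.7% GC than for genes below 43.7%, against differences of -0.34 to -0.13 in the other libraries. GC content is that of the longest transcript in GENCODE v29, known for 97.8% of tested genes. The keratins and PPL are GC-rich, from 55.7% (KRT18) to 62.9% (KRT7), and SCEL, at 37.5%, is GC-poor. In DMSO 11 the 6 keratins and PPL were 0.58 to 1.39 higher on the log2 scale than the mean of DMSO 10 and 12. For each of these 7 genes that value lay inside the range from the 5th to the 95th percentile of genes within 1 percentage point of its GC content, for example 1.21 for KRT19 in a range from 0.215 to 1.87 (median 1.03). SCEL, at -1.81, lay outside its range of -1.54 to 0.02. The 6 keratins, SCEL and PPL are therefore given with DMSO 11 and without it, and the other genes named below also without it where that changes the call. Offsets for GC content and length are a further fit to all 6 libraries. A fit without the most deviant control can understate the spread between controls.

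**Figure D2:**
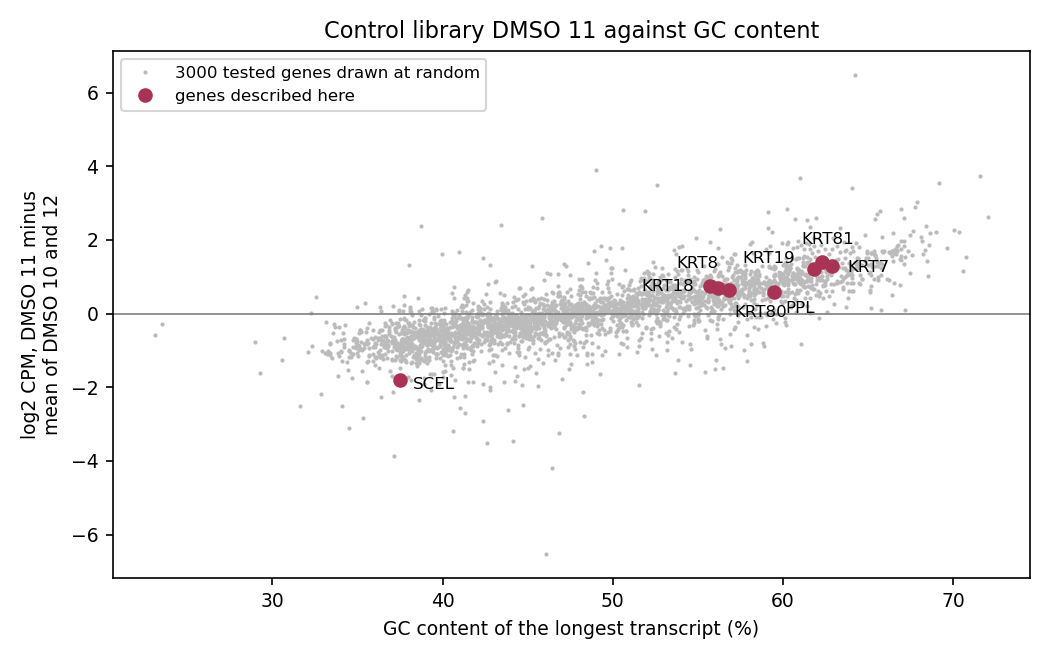
Log2 CPM of DMSO 11 minus the mean of DMSO 10 and 12 (vertical) against GC content in percent (horizontal), for 3000 tested genes drawn at random (grey) and the 8 tested genes described here (red). The grey cloud climbs with GC content; the keratins and PPL lie within it at 55.7% to 62.9% GC, and SCEL lies low at 37.5%.

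Total counts ran from 13170775 to 22128930 per library, so that 3 counts stand for 0.136 to 0.228 CPM (counts scaled to library size, with TMM factors, the trimmed mean of M values). Counts were tested with edgeR's quasi-likelihood test on 17363 genes at a Benjamini-Hochberg adjusted p of 0.05 over all of them. By this rule 540 genes were higher and 160 lower (455 and 231 with upper-quartile scaling), or 4.03% in either direction (3.11% higher and 0.921% lower). An unadjusted p under 0.05 was found in 21.3% of the 17363 genes, the share to set beside counts at that level from this fit. DESeq2 called 1155 of the 17363 higher and 808 lower, and limma-voom 594 and 156. Of the 7 tested genes other than SCEL, edgeR called 1. The groups did not overlap in 3 of the 7 (KRT7, KRT80 and PPL), against 32.6% of all genes tested. The labels do not state whether replicates came from separate cultures. The p-values thus measure the scatter among these 6 libraries, and that scatter may be technical. All 6 of 6 markers of carcinoma epithelium passed the filter on low counts, at unlike levels. PAX8 was at 201 to 342 CPM, EPCAM at 54.8 to 72.7 CPM and CDH1 at 23.5 to 44.6 CPM. CLDN4 was at 3.71 to 13.3 CPM and MUC16 at 1.94 to 3.20 CPM. CLDN3 was at 14.4 CPM in DMSO 11 and at 1.06 to 1.32 CPM in the other libraries. The summed level of the 6 was 355 to 471 CPM in DMSO and 292 to 307 CPM with fenbendazole. In bulk RNA, fewer cells of a type and less RNA per cell cannot be told apart. Of 5 keratinocyte markers 4 were tested and KRT1 was at 0 in every library. Their sum was 66.6 to 114 CPM in DMSO and 111 to 115 CPM with fenbendazole, most of it KRT5. The sum of 4 mesothelium markers was 11.4 to 24.3 CPM and 6.35 to 7.66 CPM, and of 5 leukocyte markers 4 stayed under 1 CPM in every library, with CD3E at 0. The fifth, CD68, was at 11.5 to 17.9 CPM. The fibroblast sum was 61.3 to 103 CPM in DMSO and 62.5 to 65.8 CPM with fenbendazole, most of it COL1A1, and the endothelium sum was 10.4 to 12.3 and 13.3 to 14.1 CPM. Whether these levels bear on the results was not tested.

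Some of these genes are hard to count apart, which is shown here for KRT81 because its reads can be shared. The coding sequences of KRT81 and its neighbour KRT86 in GENCODE v29 were identical at 94.5% of 1448 aligned bases, with 605 identical bases in a row. The 60-base stretch where they differ most is printed below, from base 1249 to base 1308 of each coding sequence, with the 14 differing bases in capitals.
KRT81: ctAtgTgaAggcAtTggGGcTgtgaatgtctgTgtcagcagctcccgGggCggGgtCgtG
KRT86: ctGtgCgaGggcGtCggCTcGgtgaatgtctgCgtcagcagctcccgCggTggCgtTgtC
Of all 100-base windows of the KRT81 coding sequence, 39.2% occurred in transcripts of another gene, and 38% occurred in those of KRT86. The share was 8.37% for KRT8, mostly through pseudogenes such as KRT8P3, 0.115% for EVPL, and 0 for the other 6 genes. The 51 KRT8 pseudogenes together held 1.49% to 2.51% of the KRT8 count in a library, and the 67 KRT18 pseudogenes 1.82% to 4.14% of the KRT18 count. The annotated spans of KRT8 and KRT18 overlap on opposite strands, and so do those of KRT7 and KRT7-AS, whose count was 1.60% to 6.57% of that of KRT7. Whether the counting used strand is not given in the sources used here.

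The basic pair of simple epithelia had the highest levels. KRT8 (ENSG00000170421, chromosome 12, 52897187 to 52949954, minus strand, GRCh38) was at 389, 606 and 365 CPM in DMSO 10, 11 and 12 and at 461, 484 and 383 CPM with fenbendazole 7, 8 and 9. The groups overlapped, and DMSO 11 was highest. Its log2 fold change was -0.04 ± 0.213 (SE; 95% interval -0.53 to 0.46; adjusted p = 0.938), and 0.24 ± 0.0927 without DMSO 11 (adjusted p = 0.0971). KRT18 (ENSG00000111057, chromosome 12, 52948871 to 52952906, plus strand), its type I partner, was at 159, 252 and 144 CPM in DMSO and at 154, 160 and 141 CPM with fenbendazole. Apart from DMSO 11, the libraries of both groups lay in 1 narrow range. The log2 fold change of KRT18 was -0.29 ± 0.217 (95% interval -0.80 to 0.22; adjusted p = 0.467), and 0.01 ± 0.0762 without DMSO 11 (adjusted p = 0.970).

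KRT19 (ENSG00000171345, chromosome 17, 41523617 to 41528308, minus strand), the smallest type I keratin, which lacks most of the tail domain, followed KRT18. It was at 47.6, 108 and 46.0 CPM in DMSO and at 44.5, 52.6 and 42.3 CPM with fenbendazole. DMSO 11 alone was high, at 2.32 times the mean of the other controls. The log2 fold change of KRT19 was -0.54 ± 0.336 (95% interval -1.32 to 0.25; adjusted p = 0.387) with all libraries and -0.00 ± 0.112 (adjusted p = 0.985) without DMSO 11.

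KRT7 (ENSG00000135480, chromosome 12, 52232520 to 52252186, plus strand) differed from these. It was at 76.7, 182.5 and 71.3 CPM in DMSO and at 228, 231 and 225 CPM with fenbendazole. The treated libraries lay close together and above every control, while DMSO 11 stood between the other controls and the treated group. The mean was 110.2 ± 62.7 CPM in DMSO and 228 ± 2.92 CPM in the treated libraries (SD, n = 3 each). The log2 fold change was 1.05 ± 0.348 (95% interval 0.23 to 1.86; adjusted p = 0.148). Without DMSO 11 it was 1.63 ± 0.0701 (adjusted p = 1.949e-09), a 3.09-fold difference, in a fit that called 22.3% of all genes (13.1% higher and 9.23% lower), and with offsets for GC content and length it was 1.58 ± 0.0705 (adjusted p = 1.971e-07), where 21.8% were called (11.5% higher and 10.2% lower). DESeq2 also called it (adjusted p = 0.0382).

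KRT80 (ENSG00000167767, chromosome 12, 52168996 to 52192014, minus strand) was the only one of the 7 that passed the threshold, with all 6 libraries. It was at 70.0, 105 and 64.6 CPM in DMSO and at 150.3, 159 and 147 CPM with fenbendazole. Every treated library lay above every control. The log2 fold change was 0.93 ± 0.198 (95% interval 0.47 to 1.39; adjusted p = 0.0480), and 1.18 ± 0.0762 without DMSO 11 (adjusted p = 1.037e-07). The call was lost without any other single library: the adjusted p was 0.145 without DMSO 10, 0.0914 without DMSO 12, and 0.195, 0.201 and 0.193 without fenbendazole 7, 8 and 9. It was also lost with limma on log2(FPKM + 1) (0.0709) and with upper-quartile scaling (0.0538), where 3.95% of all genes were called (2.62% higher and 1.33% lower).

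KRT81 (ENSG00000205426, chromosome 12, 52285913 to 52291534, minus strand) was at 7.80, 21.0 and 8.18 CPM in DMSO and at 21.6, 23.4 and 18.8 CPM with fenbendazole. DMSO 11 lay inside the treated range, and DMSO 10 and 12 lay far under it. The log2 fold change was 0.78 ± 0.389 (95% interval -0.13 to 1.69; adjusted p = 0.290). It was 1.42 ± 0.164 without DMSO 11 (adjusted p = 2.9e-05), a 2.67-fold difference, and 1.29 ± 0.140 with GC and length offsets (adjusted p = 9.35e-05). Its near copy KRT86 had 12 to 64 counts per library and differed by -0.34 ± 0.494 on the log2 scale (adjusted p = 0.718), so that the KRT81 values are uncertain by what the 2 genes share.

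**Figure D3:**
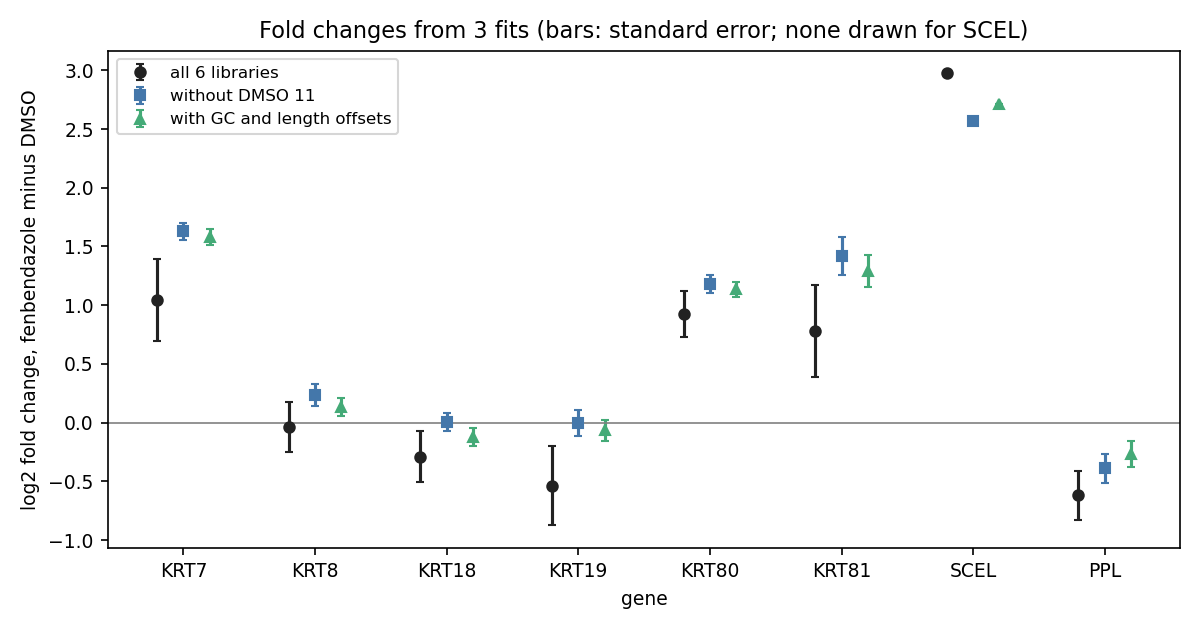
Log2 fold change, fenbendazole minus DMSO (vertical), of the 8 tested genes (horizontal) from the fit to all 6 libraries, without DMSO 11, and with GC and length offsets. Bars are standard errors, and SCEL has none because it was picked for its rise. KRT7 moves from 1.05 to 1.63 and KRT81 from 0.78 to 1.42 without DMSO 11, while KRT18 and KRT19 move to 0.01 and -0.00.

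Ratios between genes of like GC content within a library cancel what affects both alike. These were chosen after seeing the data. Each gene was set against whichever of KRT8, KRT18 and KRT19 was nearest in GC content. The count of KRT7 was 1.61, 1.68 and 1.55 times that of KRT19 in DMSO 10, 11 and 12 and 5.12, 4.38 and 5.31 times with fenbendazole, a 3.05-fold difference. In this ratio DMSO 11 lay beside the other controls. KRT81 was at 0.164, 0.193 and 0.178 of KRT19 in DMSO and at 0.487, 0.444 and 0.444 with fenbendazole (2.57-fold). KRT80 was at 0.180, 0.174 and 0.177 of KRT8 in DMSO and at 0.326, 0.328 and 0.385 with fenbendazole (1.95-fold). The pair ratio of KRT8 to KRT18 was 2.44, 2.40 and 2.54 in DMSO and 2.99, 3.03 and 2.72 with fenbendazole, 1.18 times higher, with every treated library above every control. PPL was at 0.839, 0.525 and 0.786 of KRT19 in DMSO and at 0.658, 0.609 and 0.604 with fenbendazole, where the groups overlapped. In a two-sided exact permutation test of the mean log2 ratio, 4 of the 5 ratios had p = 0.1, the smallest that 3 against 3 libraries allow (0.125 adjusted over the 5), and that of PPL to KRT19 had p = 0.4. The design therefore cannot pass 0.05 in this test.

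**Figure D4:**
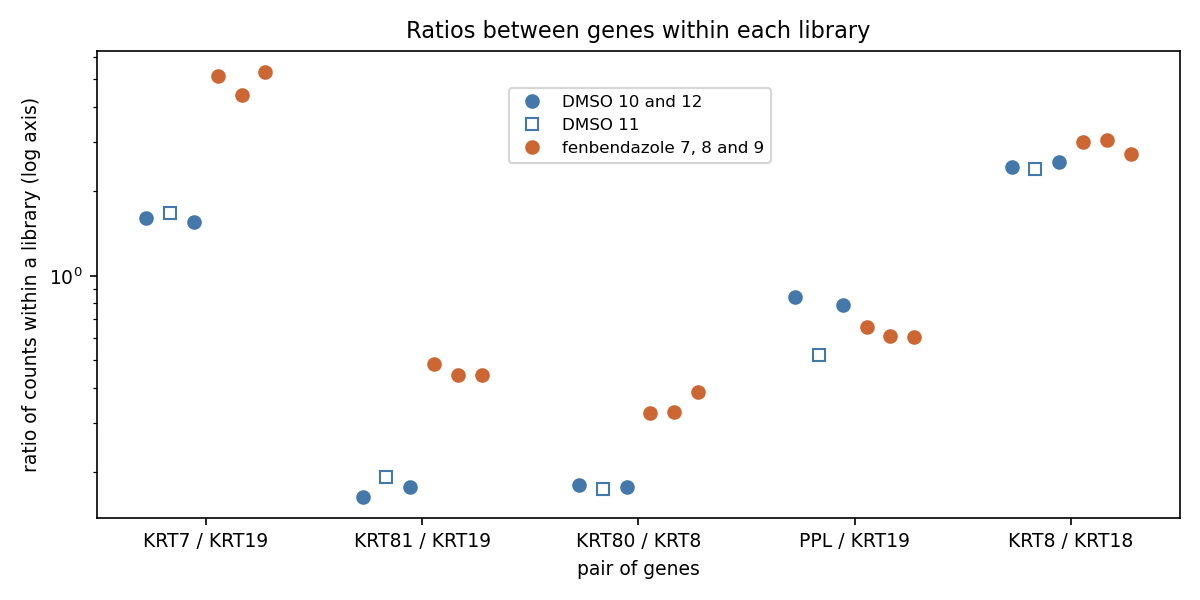
Ratio of the counts of 2 genes within a library (vertical, log axis) for 5 pairs (horizontal). Points are libraries, and open squares mark DMSO 11. DMSO 11 lies with the other controls for KRT7 to KRT19 (1.68 against 1.61 and 1.55) and KRT80 to KRT8, and apart from them for PPL to KRT19 (0.525 against 0.839 and 0.786).

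Among the envelope genes SCEL (ENSG00000136155, chromosome 13, 77535674 to 77645263, plus strand) had the largest difference of the 9 genes, which is the reason it was picked. Its count was 60 in DMSO 10, 27 in DMSO 11 and 74 in DMSO 12 (3.34, 1.19 and 5.50 CPM), and 419, 313 and 457 in the treated libraries (27.7, 22.6 and 26.9 CPM). The treated libraries were close together, and DMSO 11 had the lowest level. The mean went from 3.34 ± 2.16 to 25.7 ± 2.77 CPM (SD, n = 3 each), a log2 difference of 2.97. Without DMSO 11 the difference was 2.57 (5.94-fold), and with GC and length offsets 2.72. Across the other alternatives on counts it ran up to 3.53 (without DMSO 12), and on the log2(FPKM + 1) scale, which understates changes of low genes, it was 2.08.

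The sequence upstream of SCEL is shown because this gene has the largest difference and the lowest GC content of the 9. It comes from RefSeq (GRCh38.p14, chr13:77535456-77535673, plus strand) and covers bases -250 to -33 from the RefSeq start. Both strands were searched for the AP-1 motif TGANTCA, the TEAD motif GGAATG, the TATA box as TATAAA and the GC box as GGGCGG; none of these overlaps another. Capitals mark the match found.
SCEL: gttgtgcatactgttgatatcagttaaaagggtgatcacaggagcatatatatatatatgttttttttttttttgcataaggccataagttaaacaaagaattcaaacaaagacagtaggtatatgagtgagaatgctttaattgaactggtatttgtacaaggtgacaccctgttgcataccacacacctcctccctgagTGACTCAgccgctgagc
The window has 37.6% GC, against a median of 57.8% over 35116 promoters in the same window. TGANTCA occurred once, starting 49 bases before the RefSeq start, and in 5.93% of these promoters. The other 3 motifs did not occur in it. The TEAD motif was present in 10.5% of promoters, the TATA box in 8.04% and the GC box in 38.6%. A match describes letters only. Of the 9 genes, KRT8 and SCEL had an entry in the promoter table.

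PPL (ENSG00000118898, chromosome 16, 4882507 to 4960741, minus strand) differed from SCEL in direction. It was at 40.0, 57.0 and 36.1 CPM in DMSO and at 29.3, 32.0 and 25.6 CPM with fenbendazole. All 3 treated libraries lay under all 3 controls. The log2 fold change was -0.62 ± 0.209 (95% interval -1.10 to -0.13; adjusted p = 0.153). It was -0.39 ± 0.123 without DMSO 11 (adjusted p = 0.0362), in a fit that called 9.23% of all genes lower. With GC and length offsets it was -0.26 ± 0.111 (adjusted p = 0.117). Library quality weights in limma-voom gave a call for PPL (adjusted p = 0.0204), in a fit that called 4406 of 17363 genes, 2051 of them lower. DESeq2 and limma-voom without weights did not call PPL (adjusted p = 0.0745 and 0.1575). EVPL (ENSG00000167880, chromosome 17, 76004502 to 76027306, minus strand), the partner plakin of PPL, had 4 counts in DMSO 11, 3 in fenbendazole 7 and 0 in the other 4 libraries. At that level no fold is given. PPL made up nearly all of the SCEL, EVPL and PPL counts in DMSO, where SCEL held 2.03% to 13.2%, against 41.3% to 51.3% with fenbendazole.

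Levels can be compared between genes per length, in FPKM as deposited. In DMSO KRT8 was highest (217 ± 69.3 FPKM), followed by KRT18 (117 ± 41.8), KRT7 (71.9 ± 43.1), KRT19 (44.8 ± 25.3) and KRT80 (18.8 ± 6.08; SD, n = 3 each). PPL (6.68 ± 1.94) and KRT81 (5.83 ± 3.80) were within their spread of each other, and SCEL (0.995 ± 0.652) was far lower. With fenbendazole KRT7 (137 ± 5.06) stood above KRT18 (89.8 ± 5.59) in each library, whereas in each DMSO library KRT18 stood above KRT7. KRT80 (33.6 ± 1.83) stood above KRT19 (29.1 ± 3.96) in each treated library and below it in each DMSO library, although their treated ranges overlapped. SCEL (7.13 ± 0.867) stood above PPL (4.27 ± 0.839) in each treated library. Of 55 keratin genes in the table, 13 had a mean of at least 1 FPKM, 17 were tested and 14 had 0 counts. All keratins together took 0.0797% to 0.146% of counts, and KRT7, KRT8, KRT18 and KRT19 made up 72.2% to 81.1% of these.

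**Figure D5:**
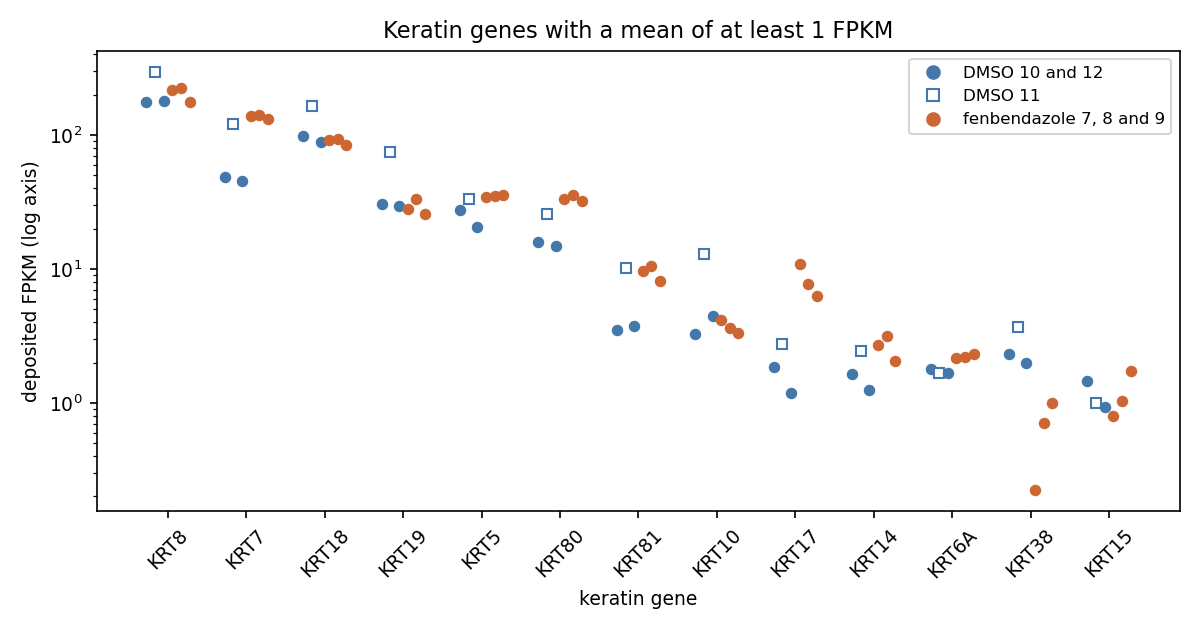
Deposited FPKM (vertical, log axis) of the 13 keratin genes with a mean of at least 1 FPKM (horizontal, by falling mean). Points are libraries, and open squares mark DMSO 11. KRT8 leads, and KRT7, KRT80 and KRT17 are higher in every treated library than in every control, as are KRT5 and KRT6A by small margins; KRT38 is lower in every treated library.

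The rest of the keratin family was taken from lists, each counted here without SCEL. Of 9 tested keratins of stratified epithelia edgeR called 2 higher and 0 lower, where 3.11% and 0.921% of all genes were called. Their median on the log2 scale was 0.465, against -0.06 over all genes tested. Without DMSO 11, 5 of 8 were higher (background 13.1%), and with offsets 5 were (11.5%). KRT16 was 1 of the 5 in both fits. It had 0, 16 and 0 counts in DMSO 10, 11 and 12, and 20, 15 and 22 with fenbendazole. In both fits KRT16 passed the filter on low counts only with the treated libraries, so neither of its calls is support. In this list 0 were called without DMSO 10 or without any 1 treated library. The 2 called with all libraries were KRT80 and KRT17, a keratin of basal appendage and stressed epidermis. KRT17 was at 3.29, 4.61 and 2.08 CPM in DMSO and at 18.9, 13.3 and 11.1 CPM with fenbendazole. It was 4.28-fold higher (SE of the log2 fold change 0.347, adjusted p = 0.0187). KRT17 missed the threshold when DMSO 10 was left out (adjusted p = 0.0883) or any treated library (0.104, 0.0836 and 0.0703 for fenbendazole 7, 8 and 9), and related keratins and pseudogenes may share its reads. KRT5, a basal keratinocyte keratin, was at 65.1 ± 14.2 and 89.7 ± 3.41 CPM (log2 fold change 0.46 ± 0.178, adjusted p = 0.197), and was called without DMSO 11 (adjusted p = 0.003). KRT34, a hair keratin named after its values were seen, had 0 counts in each control and 13, 15 and 15 in the treated libraries, at least 5.41-fold higher when 3 counts are assumed in each control library. It passed the filter on low counts only through the treated libraries, so its call is not counted here. Of the other 3 tested hair keratins (KRT38, KRT81 and KRT86) edgeR called 0, with 1 lower (KRT38) at an unadjusted p under 0.05 (DESeq2 1, limma-voom 0). Without DMSO 11 and with offsets KRT81 was called higher and KRT38 lower. KRT38 was at 7.91 ± 2.37 and 2.07 ± 1.26 CPM (log2 fold change -1.93 ± 0.500, adjusted p = 0.0826, and 0.033 without DMSO 11). Of the 4 tested simple-epithelium keratins edgeR called 0, with 1 at an unadjusted p under 0.05. DESeq2 called 1 and limma-voom 0. Over all genes tested 21.3% had an unadjusted p under 0.05.

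For other genes of the cornified envelope edgeR gave no call with all 6 libraries. Of 44 precursors in the table besides SCEL, 23 had 0 counts in every library and 9 were tested. By edgeR 0 were called, with 2 lower at an unadjusted p under 0.05 (DESeq2 1, limma-voom 0), and the median was -0.17. Over all genes tested 21.3% were at that level, in either direction. Without DMSO 11, 1 precursor was called higher and 2 lower (KAZN and PPL), where 13.1% of all genes were higher and 9.23% lower. With offsets the counts were also 1 and 2 (11.5% and 10.2% of all genes), and PPL was not among them. Involucrin (IVL), a classic envelope protein, had 5 counts in fenbendazole 8 and 0 in the other libraries. KAZN, which encodes kazrin, a binding partner of periplakin, was at 289 ± 64.8 CPM in DMSO and 179.5 ± 11.95 CPM in the treated libraries, a log2 difference of -0.69 ± 0.173 (adjusted p = 0.0777). With DMSO 11 left out it was -0.48 (adjusted p = 0.000237). Of 10 tested cross-linking enzymes and envelope lipid genes 0 were called, with 2 higher at an unadjusted p under 0.05 (DESeq2 2, limma-voom 0). Without DMSO 11, 1 of the 10 was higher and 0 lower (13.1% and 9.23% of all genes). With offsets 1 was higher and 1 lower (11.5% and 10.2%). TGM1, the transglutaminase of keratinocytes, was at 1.82 ± 0.498 and 2.72 ± 0.194 CPM (adjusted p = 0.327). UGCG, which makes glucosylceramide, was at 49.5 ± 5.56 and 71.1 ± 3.33 CPM (adjusted p = 0.0872, and 0.00255 without DMSO 11). With offsets UGCG was not called (adjusted p = 0.0543).

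Genes of the plakin family and of desmosomes were likewise not called by edgeR with all 6 libraries. Of 5 tested plakins edgeR called 0, with 1 higher (MACF1) and 1 lower (PPL) at an unadjusted p under 0.05 (DESeq2 1, limma-voom 0). Of 9 tested desmosome genes edgeR called 0, with 1 lower (PKP4) at that level and 0 by DESeq2 or limma-voom. Over all genes tested 21.3% were at that level. DSP, desmoplakin, which ties keratins to desmosomes, was at 776 ± 88.2 and 808 ± 8.68 CPM (adjusted p = 0.808). PKP4, a plakophilin, differed by -0.27 ± 0.113 on the log2 scale (adjusted p = 0.221, and 0.00191 without DMSO 11). Without DMSO 11, 2 plakins were called higher and 1 lower, and 3 desmosome genes lower, against 13.1% of all genes higher and 9.23% lower in that fit. With offsets 2 plakins were higher and 4 desmosome genes lower (11.5% and 10.2%).

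Of 22 tested transcription factors and signalling genes of epithelial differentiation edgeR called 0 higher and 1 lower, with a median of -0.34, which was -0.04 without DMSO 11. At an unadjusted p under 0.05, 3 were higher and 6 lower, where 21.3% of all genes were at that level in either direction. DESeq2 called 2 and 4, and limma-voom 1 and 1. Without DMSO 11, and likewise with offsets, 4 were called higher and 5 lower. Of all genes 13.1% were higher and 9.23% lower without DMSO 11, and 11.5% and 10.2% with offsets. HES2, a repressor of the HES family, was at 48.3, 73.9 and 39.4 CPM in DMSO and at 21.1, 20.5 and 18.9 CPM with fenbendazole. Its log2 fold change was -1.42 ± 0.244 (adjusted p = 0.0213). HES2 missed the threshold when DMSO 10 was left out (adjusted p = 0.0693) or any treated library (0.122, 0.120 and 0.142 for fenbendazole 7, 8 and 9). GRHL1, a grainyhead factor of epidermal differentiation, was at 0.974 ± 0.693 and 3.86 ± 0.444 CPM (adjusted p = 0.081, and 0.0197 without DMSO 11). With 0.334 CPM in DMSO 10, GRHL1 passed the filter on low counts only with the help of the treated libraries. It is 1 of the 4 called higher in both fits, and these calls are no support. TP63, the master factor of stratified epithelium, was at 5.96, 2.76 and 3.64 CPM in DMSO and at 9.47, 8.15 and 8.42 CPM with fenbendazole (log2 fold change 1.07 ± 0.312, adjusted p = 0.110, and 0.0227 without DMSO 11). TFAP2A was at 69.2 ± 2.06 and 47.5 ± 5.28 CPM (adjusted p = 0.0767, and 0.00146 without DMSO 11).

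The remaining lists gave 0 calls by edgeR with all 6 libraries. Without DMSO 11 it called 4 S100 genes, 1 other filament (VIM) and 4 keratin partners higher, and 0 lower. In that fit 13.1% of all genes were higher and 9.23% lower. With offsets these list counts were 2, 0 and 3, against 11.5% of all genes higher and 10.2% lower. Of 11 tested S100 genes of the epidermal differentiation complex and of 7 other cytoplasmic intermediate filaments, 0 had an unadjusted p under 0.05 and 0 were called by DESeq2 or limma-voom. VIM, the mesenchymal filament vimentin, was at 1016, 1349 and 920 CPM in DMSO and at 1124, 1212 and 1150 CPM with fenbendazole (log2 fold change 0.09 ± 0.159, adjusted p = 0.785). Without DMSO 11 it was 0.27 (adjusted p = 0.0062), and with offsets the adjusted p was 0.997. Of 12 keratin partners and turnover genes 4 were higher at an unadjusted p under 0.05 (DESeq2 called 2, limma-voom 0). Over all genes tested 21.3% were at that level, in either direction. LMO7 was at 36.8 ± 6.86 and 57.2 ± 3.98 CPM (adjusted p = 0.0968, and 0.00281 without DMSO 11).

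The genes nearest in pattern were found by the root mean square difference of log2 CPM, centred on each gene's mean, over the 6 libraries. Candidates were 11595 tested genes with a symbol and a mean of at least 5 CPM. Nearest to SCEL were KIF14 (0.188), a kinesin of cell division, CENPE (0.219), a kinetochore motor, and SGO2 (0.221), a shugoshin. SCEL was picked for its rise in these same libraries, so genes near it in pattern had to rise as well. KIF14, for example, had a mean of 10.3 CPM in DMSO and 98 CPM with fenbendazole. A link between SCEL and these genes was not tested. Nearest to KRT7 were LMNB2 (0.156), a nuclear lamin, KRT81 (0.159) and DTYMK (0.169), a thymidylate kinase. Nearest to PPL were TBC1D25 (0.0268), TXN2 (0.0289) and TAPBP (0.0470). The distances for SCEL were larger than those for PPL. The measure is not scaled to a gene's own spread over the libraries, so distances are not comparable between these genes.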

How the data were processed

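Poly(A) RNA from 6 SKOV3 libraries was analysed from 1 deposited table. It holds whole-number read counts per gene, deposited without normalisation, and FPKM values computed by the authors, per the file headers. The tools named in the submitters' processing notes are HISAT2 2.1.0, StringTie 1.3.4b, CASAVA 1.8 and edgeR, and the build is GRCh38. Which program counted the reads, whether by strand and on which gene models is not given in the sources used here.

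Counts were fitted with edgeR 4.0.16 in R 4.3.3 (TMM scaling, edgeR's filter on low counts, robust quasi-likelihood test, Benjamini-Hochberg adjustment over 17363 genes). Standard errors came from the F statistic, with 95% intervals. Replicate pairs differed beyond sampling noise. Chi-square per degree of freedom was 79.2 and 87.2 for the pairs with DMSO 11, and 4.86 to 8.47 for the other pairs. All 6 libraries were kept in the main fit. The script was tested on simulated counts. The members and lists were chosen with earlier results of these data known. Text names the 9 members, up to 3 tested genes with the smallest p and at least 1 CPM per list (some are left out here), KRT86, KRT83, VIM, TGM1, IVL and TP63, and the 3 nearest genes in pattern of SCEL, KRT7 and PPL. KRT83, another near copy of KRT81, had 0 to 20 counts per library. DSP, KRT16, KRT34, KRT6A and the cell type markers are named beyond that rule, after their values were seen. GC and length offsets were natural splines of 5 and 4 degrees of freedom on the centred log2 CPM. DESeq2 1.42.0, limma 3.58.1 and matplotlib 3.10.9 were also used.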

Additional observations from a re-analysis of the deposited data

How the results depend on the processing

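No paired analysis was possible because no replicate number occurs in both groups. Against 700 genes past the threshold (540 higher, 160 lower), DESeq2 gave 1963 (1155 and 808), limma-voom with library quality weights 4406 (2355 and 2051), GC content and length offsets 3693 (1960 and 1733), and an adjusted p of 0.01 gave 210 (193 and 17). With 1 library left out, 147 to 3946 genes passed (139 to 2313 higher, 8 to 1633 lower), most without DMSO 11. Of the 7 tested members other than SCEL, 1 was called with all libraries. DESeq2 called 2 (KRT7 and KRT80), offsets 3 (also KRT81), and quality weights 4 (also PPL). Upper-quartile scaling, limma on log2 FPKM and an adjusted p of 0.01 each called 0, with 3 at an unadjusted p under 0.05 each. In the main fit 21.3% of all genes tested were at that level. The share was not computed for the other fits, including those without 1 library, so their unadjusted counts cannot be set beside a background. Leaving out 1 library called 0 to 4, with 2 to 5 at an unadjusted p under 0.05, and the 4 were KRT7, KRT80, KRT81 and PPL without DMSO 11. Of 35 genes named by the rule, which leaves out KRT34, 3 passed the threshold (KRT80, KRT17 and HES2), and all 3 calls were lost at 0.01, without DMSO 10 and without each treated library. Without DMSO 11, 17 more of the 35 were called, where 22.3% of all genes were called, against 4.03% with all libraries. Many of the 35 were named for the smallest p in their list in these data, which raises both counts. The log2 difference of the KRT7 to KRT19 ratio, 1.61, ran from 1.55 to 1.69 with deposited FPKM or without 1 library. The cause of these shifts was not tested. Low counts limit EVPL, KRT16, KRT34, KRT86 and GRHL1.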
